A study of Mus musculus with 6 samples.

Results

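The genes described here are the laminin chains and the integrin subunits, measured as RNA in distal pieces of mouse sciatic nerve from both sexes. They were taken by symbol (Lama, Lamb or Lamc with a number, Itga or Itgb with a number or letter) from transcripts annotated as protein coding, which gave 37 genes with 99 protein-coding transcripts out of 54309 genes and 140789 transcripts. Of the 37 genes, 11 encode laminin chains, 18 encode integrin alpha subunits and 8 encode integrin beta subunits. The study set out to compare the transcriptomes of female and male nerves after axotomy, a surgical cut through the nerve. Each sex had 3 RNA-seq libraries from C57BL/6 mice aged 6 to 8 weeks, each library pooling distal pieces of the left nerve from 2 animals, taken 24 h after surgery. The treatment field calls all 6 libraries axotomy, while the procedure written for the same libraries describes exposure of the nerve without transection. Which of these applies cannot be told apart from the labels, and unoperated nerves were not analysed here.

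Laminins are cross-shaped trimers of an alpha, a beta and a gamma chain and form the scaffold of basement membranes. In peripheral nerve each Schwann cell and its axon are wrapped in such a basal lamina, and perineurial cells, blood vessels and fat cells have basal laminae of their own. Integrins are receptors of an alpha and a beta subunit that hold cells to laminin, collagen, fibronectin or, on leukocytes, to other cells. Schwann cells bind laminin mainly through integrins made from Itgb1 or Itgb4 and through dystroglycan, and loss of Lama2 or of Lamc1 in these cells impairs the sorting and myelination of axons.

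Libraries held 55272138 to 77610593 estimated reads, of which 93.7 to 94.4% fell in the gene sums used here, and a count of 3 reads corresponded to at most 0.0578 CPM (counts per library total, scaled by TMM to even out library composition). The labelled tissue was checked against its markers. All 7 myelin markers were present, with a summed level of 12356 to 19415 CPM in the female libraries and 25252 to 34208 CPM in the male ones. Skeletal muscle markers stood apart in 2 libraries, with summed levels of 1426 CPM in female 2 and 756 CPM in male 1 against 4.46 to 20.3 CPM in the other 4. Female 2 also had the highest sum of adipocyte markers, 1080 CPM against 356 to 720 CPM elsewhere. Female 1 held the keratinocyte genes Krt5 at 10.8 CPM and Krt14 at 19.0 CPM, both at 0.0463 CPM or less in the other libraries. Dsg3 was at 1.37 CPM in female 1 and at 0.0309 CPM or less elsewhere. Krt10, the last of the 4 keratinocyte markers, was not raised there, at 1.78 CPM against 1.59 to 2.35 CPM. Values without female 2 and male 1 are given beside the classes and lists that change most without them.

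Levels between genes were compared in TPM, which is scaled for transcript length. Among the laminin alpha chains, Lama4, a chain of endoneurial, vascular and fat basement membranes, had the highest level, 55.9 ± 4.84 TPM in females and 62.4 ± 10.95 TPM in males (SD, n = 3 each, as for all values given with ± below). Lama2, the alpha chain of the Schwann cell basal lamina, followed with 22.1 ± 4.58 and 36.4 ± 4.27 TPM, and Lama5, an alpha chain of vessels and epithelia, with 13.4 ± 0.927 and 15.1 ± 1.84 TPM. The other two alpha chains were far lower. Lama3, an epithelial chain, averaged 0.512 TPM on 163 to 314 reads per library. Lama1, the chain of the early embryo, averaged 0.0276 TPM on 4 to 30 reads per library. Among beta and gamma chains, Lamb2 averaged 117 TPM, Lamb1 108 TPM and Lamc1 85.4 TPM. Lamb1 and Lamb2 overlapped across the libraries, and which was higher depended on short transcripts, as described with the chain shares. The epithelial chain Lamb3 averaged 2.40 TPM, and Lamc3 averaged 0.626 TPM.

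Itgb1, the beta subunit shared by most laminin and collagen receptors, had the highest level of all 37 genes, 340 ± 15.9 TPM in females and 326 ± 28.1 TPM in males. Next were Itgam and Itgb2, the subunits of the myeloid integrin Mac-1, with means of 172 and 152 TPM over the 6 libraries. The laminin-binding alpha subunits Itga6 and Itga7 averaged 114 and 99.6 TPM, and Itgb4, the partner of Itga6 in myelinating Schwann cells, averaged 69.5 TPM. Itga3, another laminin-binding alpha subunit, averaged 6.51 TPM. The subunits that recognise the RGD sequence of vitronectin, fibronectin and latent TGF-beta spanned a wide range, with Itgb8 at 96.0 TPM, Itgav at 84.5 TPM, Itgb5 at 69.8 TPM, Itga5 at 43.2 TPM, Itgb3 at 7.08 TPM and Itga8 at 1.24 TPM. Of the collagen-binding alpha subunits, Itga1 was at 12.1 TPM, Itga11 at 2.07 TPM, Itga2 at 1.97 TPM and Itga10 at 1.70 TPM. Itga9, a receptor subunit for tenascin and other matrix proteins, averaged 11.9 TPM. With the genes reported here ordered by mean TPM, the library values of neighbours overlapped in all but 3 of 35 pairs, which were Itgb1 above Itgam, Itga3 above Lamb3 and Itga10 above Itga8.

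**Figure D1:**
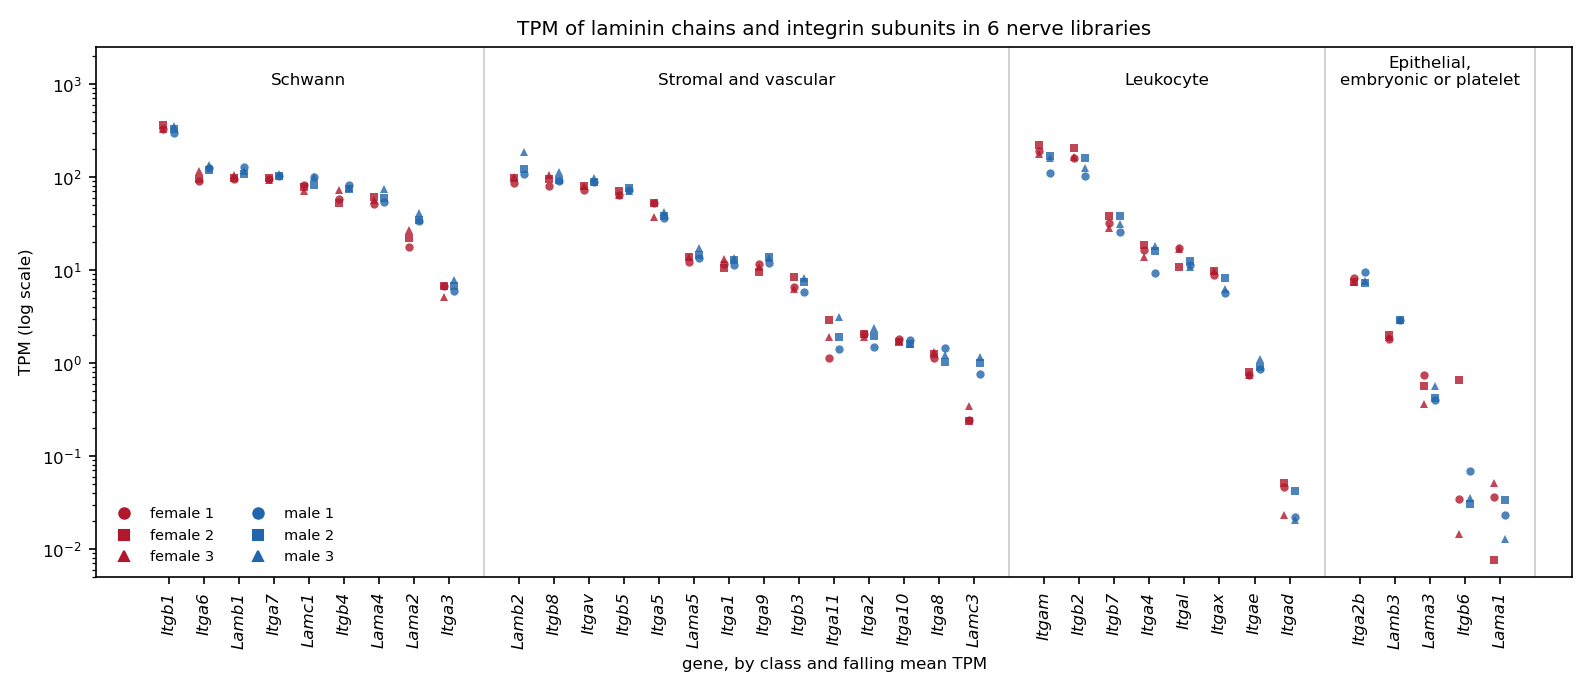
TPM (log axis) of the laminin and integrin genes reported here in the 3 female and 3 male libraries, 1 point per library (female red, male blue), by class and falling mean level. Itgb1 is highest at 333 TPM on average, and Lama1, Itgad, Itgb6, Lama3, Lamc3 and Itgae average below 1 TPM.

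Of the leukocyte subunits, Itgb7 averaged 32.2 TPM, Itga4 15.4 TPM, Itgal 13.2 TPM and Itgax 8.10 TPM. Itgae, the alpha subunit of resident T cells and some dendritic cells, averaged 0.857 TPM. Itga2b, the platelet subunit, averaged 7.90 TPM. Itgad, a leukocyte subunit, had 3.02 to 10.0 reads per library. Itgb6, an epithelial subunit, had 112 reads in female 2 and 3 to 13 reads in each of the other 5 libraries. Itgad and Itgb6 did not pass the filter on low counts, and the other 35 genes were tested between the sexes.

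The comparison of the sexes called 1 of the 35 tested members, Lamc3, at an adjusted p under 0.05. Of all 18916 genes tested 0.116% were called, 0.0952% higher in males and 0.0211% higher in females. That test was edgeR's quasi-likelihood test with Benjamini-Hochberg adjustment over all genes, and adjusted p-values below are from it unless another tool is named. In bulk tissue, fewer cells of a type and less RNA per cell cannot be told apart. Log2 fold changes below are female minus male. Of the 35 members, 22 lay below 0 (median -0.08), against 46.6% of all genes and a median of 0.02.

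Lamc3 encodes the gamma-3 chain, a laminin chain found outside the usual Schwann cell trimers. It was at 1.16, 1.10 and 1.69 CPM in females 1 to 3 and at 3.69, 4.64 and 5.11 CPM in the male libraries. Every male library was above every female one. The means were 1.31 ± 0.325 and 4.48 ± 0.726 CPM, 3.40-fold higher in males (log2 fold change -1.77, SE 0.22, adjusted p = 0.0474 by edgeR). These levels rested on 71 to 121 reads per female library and 262 to 265 per male library. Leaving out any library except female 3 ended the call, with adjusted p of 0.0638 to 0.237, and so did leaving out female 2 and male 1 together (adjusted p = 0.0783, log2 fold change -1.78). The value stayed between -1.99 and -1.66 when 1 library was left out. DESeq2, run as an alternative, called 6 members, against 4.13% of all genes: Lamc3, Lama2, Lamb2, Lamb3 and Itga9 lower in females and Itgax higher.

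**Figure D2:**
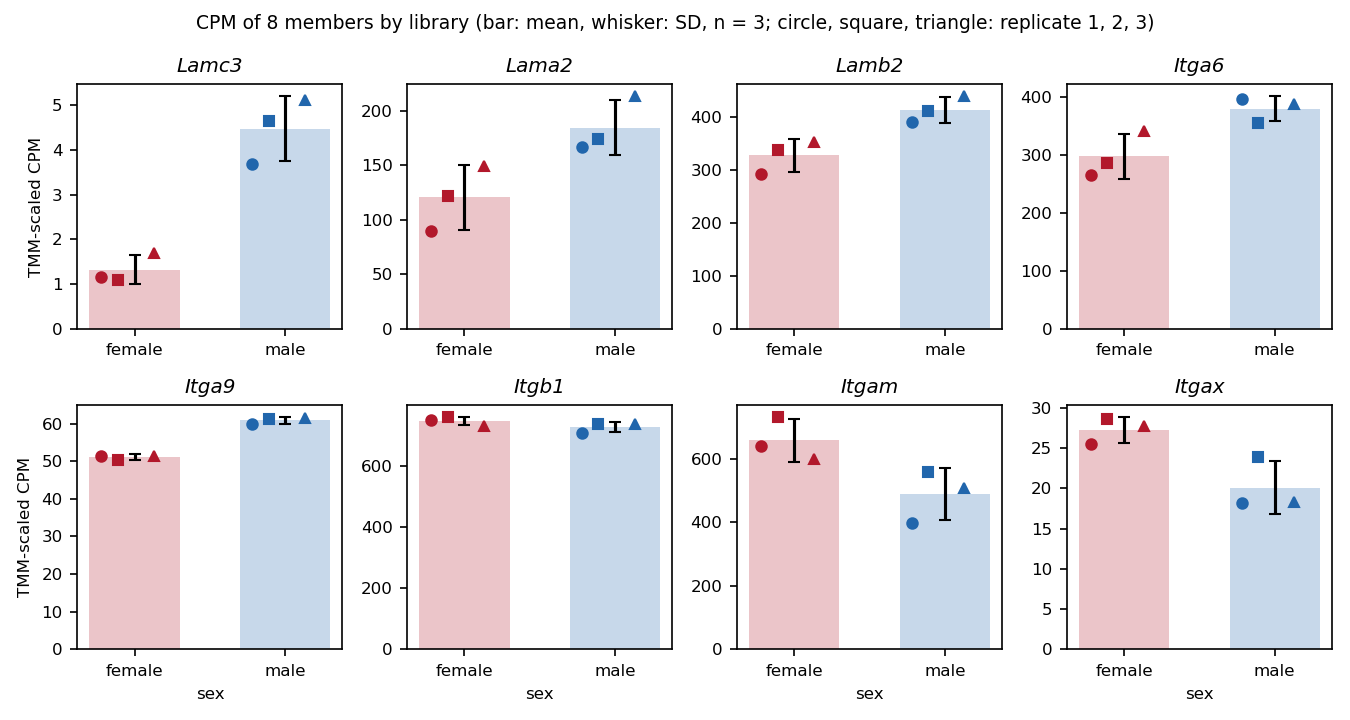
CPM of 8 laminin chains and integrin subunits in each library, with the mean of each sex as a bar, the SD (n = 3) as a whisker and 1 point per library (female red, male blue). Lamc3 is the gene past the threshold, at 1.10 to 1.69 CPM in females and 3.69 to 5.11 CPM in males.

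Most other laminin chains were also at lower values in the female libraries, though none passed the test. Of the 11 chains, 9 lay below 0 on the log2 scale (median -0.24), and in 6 every male library was above every female one, which held for 11.3% of all genes tested. Lama2 had 90.0, 122 and 150 CPM in the female libraries and 167, 174 and 214 CPM in the male ones. The groups did not overlap, and female 1 was the lowest of all (log2 fold change -0.62, SE 0.19, adjusted p = 0.241). In TPM its transcript Lama2-201 overlapped between the sexes and Lama2-208 did not, as given below with the chain shares. Lamb2, a beta chain of the perineurium, vessels and the Schwann cell lamina, was at 293, 338 and 353 CPM in females and 391, 413 and 440 CPM in males (-0.34, SE 0.10, adjusted p = 0.210). Lamc1, the gamma chain of most laminins, was at 399 to 465 CPM in females and 475 to 552 CPM in males (-0.24, adjusted p = 0.341). Lamb1, its usual beta partner, overlapped between the sexes, at 430 to 482 against 480 to 611 CPM (-0.22). Lama4 (-0.15) and Lama5 (-0.15) also overlapped. For Lamb1 and Lamc1 the overlap depended on the unit. In TPM Lamb1 did not overlap, at 94.9 to 105 in females and 107 to 127 in males. Lamc1 did, at 70.0 to 83.1 and 82.4 to 99.3 TPM. With 1 library left out, Lamb1 ranged from -0.28 to -0.10 (the latter without male 1), Lama4 from -0.22 to -0.039 and Lama5 from -0.19 to -0.075 (the last value of each without male 3).

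The epithelial chain Lamb3, a partner of Lama3 in the laminin under stratified epithelia, was higher in every male library than in any female one. It was at 7.01 to 8.01 CPM in females and 9.20 to 11.5 CPM in males (-0.47, SE 0.12, adjusted p = 0.173). Lama3 had the opposite sign, at 3.12 to 4.54 CPM in females and 2.35 to 3.32 CPM in males (0.41, adjusted p = 0.421). Its highest value was in female 1, the library with Krt5, Krt14 and Dsg3 but no rise of Krt10, where Lamb3 had its lowest, 7.01 CPM. The part of keratinocytes in these values was not tested. Lama1 had values of 0.0618 to 0.418 CPM with no separation of the sexes.

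Each chain was also expressed as its share of the TPM of all alpha, beta or gamma chains in a library, which does not depend on the total laminin level. Lama2 made up 21.5, 22.8 and 27.4% of the alpha chains in females 1 to 3 and 33.1, 31.7 and 30.9% in the male libraries. Lama4 made up 60.8 ± 2.59% in females and 54.4 ± 1.41% in males, and Lama5 14.6 ± 0.460% and 13.2 ± 0.355%. For these 3 chains the sexes did not overlap, with Lama2 higher and Lama4 and Lama5 lower in males, and each gave p = 0.1 in a two-sided exact permutation test. That is the smallest p that 3 against 3 libraries allow, and after adjustment over the 8 shares compared it was 0.267. The 3 shares are parts of 1 total and do not vary independently. They also rest on the assignment of reads to Lama2 transcripts. Lama2-201, of 9614 bases, overlapped between the sexes, at 9.50 to 16.9 TPM in females and 14.6 to 24.7 TPM in males. Lama2-208, of 3383 bases, did not, at 7.97 to 9.77 and 15.9 to 18.7 TPM. Shares with Lama2-201 alone were not tested.

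With all protein-coding transcripts, the beta chains were close to equal parts of Lamb1 and Lamb2. Lamb1 made up 49.3 to 52.1% in females and 37.9 to 53.7% in males, and Lamb2 46.9 to 49.6% and 45.1 to 61.2% (exact permutation p = 0.5 for each). The highest Lamb2 share, in male 3, came with 273 reads on a transcript of 332 bases, Lamb2-204, which had 0 reads in the other 5 libraries and took 24.7% of the Lamb2 TPM there. With transcripts of at least 1000 bases only, a check chosen after seeing the data, Lamb1 was above Lamb2 in all 6 libraries, at 52.9 to 59.7% against 38.9 to 45.8%, with male 3 still the highest for Lamb2. Of the gamma chains, Lamc3 made up 0.281 to 0.458% in females and 0.717 to 1.12% in males.

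**Figure D3:**
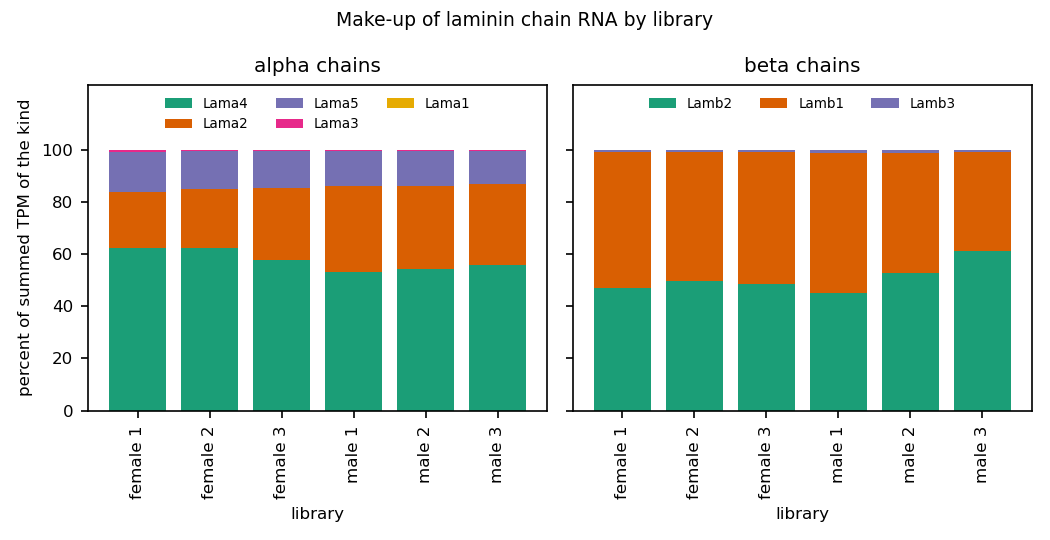
Share (percent of TPM) of each alpha and beta laminin chain among its kind in each library, as stacked bars. Lama4 is the largest alpha share in all 6 libraries, and Lama2 is 21.5 to 27.4% in females against 30.9 to 33.1% in males.

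Among the laminin receptors of Schwann cells, Itga6 and Itga7 were higher in every male library than in any female one, though neither passed the test. Itga6 was at 266, 286 and 341 CPM in females 1 to 3 and 396, 355 and 389 CPM in the male libraries (log2 fold change -0.35, SE 0.11, adjusted p = 0.235). The groups did not overlap, with female 3 the highest female library and male 2 the lowest male one. Itgb4, with which Itga6 pairs on myelinating Schwann cells, was at 280, 264 and 361 CPM in females and 418, 357 and 359 CPM in males, so that female 3 lay among the males (-0.33, SE 0.13, adjusted p = 0.340). In TPM Itgb4 did not overlap, at 53.2 to 72.6 in females and 73.6 to 83.0 in males. Itga7, which pairs with Itgb1, was at 301 to 310 CPM in females and 316 to 336 CPM in males, a small difference without overlap (-0.08, adjusted p = 0.645). Itgb1 itself was at 732 to 758 and 707 to 737 CPM (0.04, adjusted p = 0.864), and Itga3 at 20.3 to 26.5 and 24.2 to 28.8 CPM (-0.11). Neither separated the sexes.

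The class of Schwann cell chains was fixed as Lama2, Lama4, Lamb1, Lamc1, Itga3, Itga6, Itga7, Itgb1 and Itgb4. The name does not confine them to Schwann cells, since Lama4, Lamc1 and Itgb1 also belong to other basement membranes or receptors. Lamb2, also of the Schwann cell lamina, was placed with the stromal and vascular chains. The Schwann class had 8 of 9 values below 0 and a median of -0.22. None of the 9 passed the test. Without female 2 and male 1 the median was -0.24, with the same count below 0. Cell type markers were set beside these chains. All 7 Schwann cell markers had values below 0 (median -0.36), with sums of 1090 to 1546 CPM in females and 1580 to 2115 CPM in males, and without female 2 and male 1 the count was 5 of 7 (median -0.10). All 7 myelin markers were below 0 (median -0.78), against 6 of 7 without both libraries (median -0.48). Fibroblast markers, with 6 of 7 below 0, summed to 4195 to 5049 against 5808 to 7273 CPM, and all 6 perineurial markers were below 0, with sums of 465 to 546 against 560 to 587 CPM. Markers of other cells with a basal lamina lay differently. All 5 endothelial markers (median 0.11), all 5 adipocyte markers (median 0.27) and 4 of 6 mural cell markers (median 0.04) were above 0, and without both libraries 2 of 5, 1 of 5 and 0 of 6 were. The part of these differences in the laminin values was not tested.

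**Figure D4:**
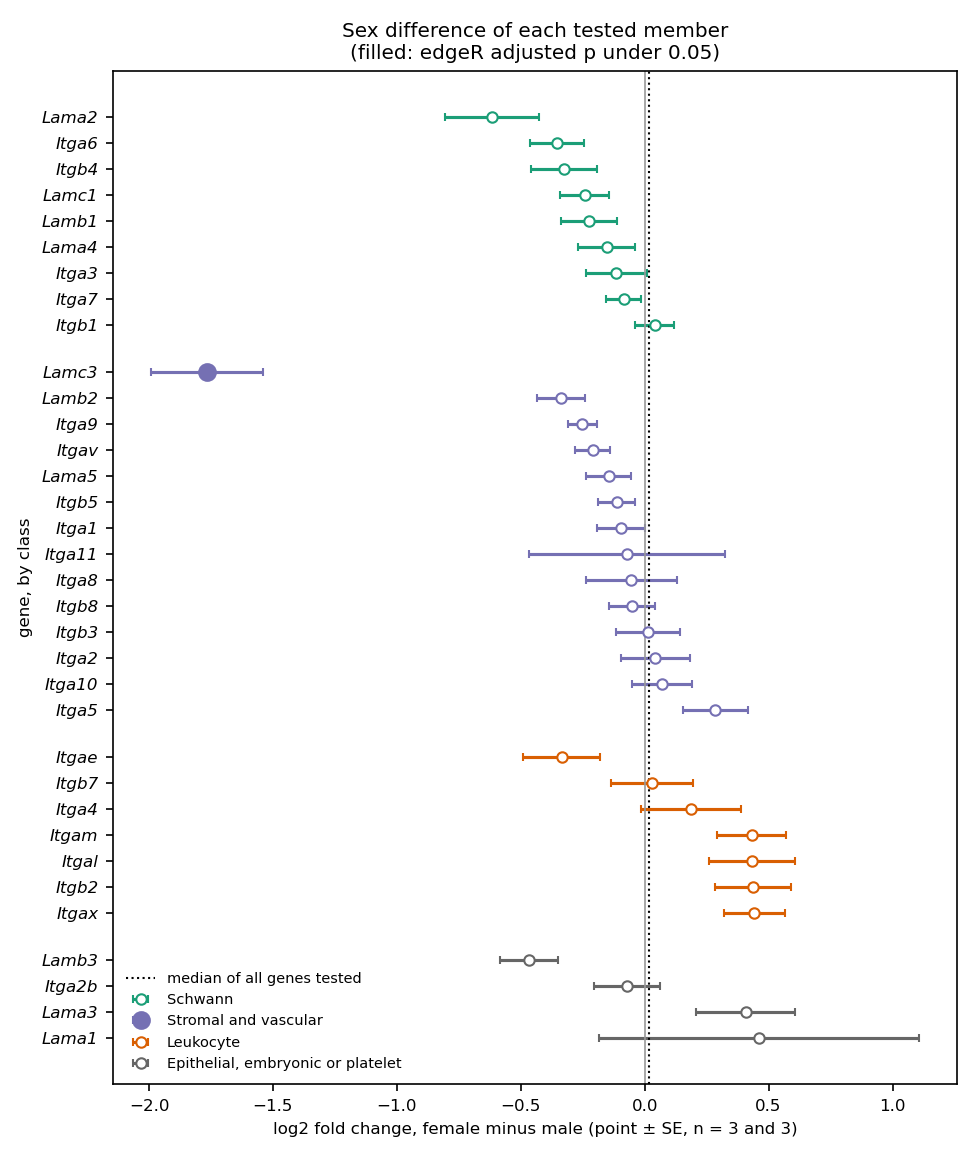
Log2 fold change, female minus male, of the tested laminin and integrin genes reported here with the standard error as a bar, grouped by class. Lamc3 at -1.77 is the only gene shown past an adjusted p of 0.05, and the leukocyte subunits Itgax, Itgb2, Itgal and Itgam lie at 0.43 to 0.44.

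The stromal and vascular chains were mostly near 0, with a median of -0.08 and 10 of 14 values below 0. The median was -0.15 without female 2 and male 1. Itga9 was at 51.5, 50.4 and 51.5 CPM in females and 59.9, 61.4 and 61.6 CPM in males, with a narrow spread in each sex (-0.25, SE 0.06, adjusted p = 0.162). Itgav, the alpha subunit shared by the vitronectin and TGF-beta binding integrins, was at 241 to 251 CPM in females and 276 to 298 CPM in males (-0.21, adjusted p = 0.262). Its beta partners overlapped between the sexes, with Itgb5 at -0.11, Itgb8 at -0.05 and Itgb3 at 0.01. The fibronectin receptor subunit Itga5 was at 181, 185 and 131 CPM in females and 134, 133 and 142 CPM in males (0.29, adjusted p = 0.39), with female 3 at the male level. The collagen-binding subunits Itga1 (-0.10), Itga2 (0.04), Itga10 (0.07) and Itga11 (-0.07), and Itga8 (-0.05), had adjusted p of 0.701 or more. Itga11 varied widely within a sex, from 4.78 to 12.7 CPM among females.

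The leukocyte subunits lay on the other side of 0, with a median of 0.43 and 6 of the 7 tested values above 0, and none passed the test. Itgam, the alpha subunit of Mac-1 on neutrophils and macrophages, was at 640, 732 and 600 CPM in females 1 to 3 and 397, 558 and 507 CPM in the male libraries (0.43, SE 0.14, adjusted p = 0.249). Itgb2, the beta subunit of the leukocyte integrins, was at 345, 445 and 355 CPM in females and 245, 342 and 260 CPM in males (0.44, SE 0.15, adjusted p = 0.283). Itgax, found on dendritic cells and some macrophages, was at 25.5, 28.6 and 27.8 CPM in females and 18.1, 23.9 and 18.3 CPM in males (0.44, SE 0.12, adjusted p = 0.205). In all 3 genes every female library was above every male one, which held for 9.25% of all genes tested. In each, female 2 was the highest library and male 1 the lowest, and without these libraries the class median was 0.22, with 4 of 7 values above 0.

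Itgal, the alpha subunit of LFA-1 on lymphocytes and myeloid cells, overlapped between the sexes, at 65.7, 43.1 and 65.3 CPM in females and 40.4, 48.7 and 39.8 CPM in males (0.43, adjusted p = 0.340). Itga4, which binds Vcam1 and fibronectin, was at 71.9 to 94.7 and 53.4 to 87.4 CPM (0.19). Itgb7, a beta subunit that Itga4 can pair with, was at 51.7 to 71.2 and 49.5 to 70.4 CPM (0.03). Itgae had the opposite sign and did not overlap, at 2.18 to 2.39 CPM in females and 2.66 to 3.20 CPM in males (-0.33, adjusted p = 0.396). Leukocyte markers were given by kind. Macrophage markers summed to 1242 to 1722 CPM in females and 852 to 1461 CPM in males, with the highest sum in female 2 and the lowest in male 1. Their median was 0.27, with 4 of 5 above 0, and -0.07, with all 5 below 0, without these libraries. Neutrophil markers summed to 836 to 1555 and 605 to 1225 CPM, with 5 of 6 above 0 (median 0.54), and all 6 were above 0 without female 2 and male 1 (median 0.93). T and NK cell markers summed to 4.96 to 6.87 against 8.88 to 14.4 CPM, with all 6 lower in every female library than in any male one. That held for 11.3% of all genes tested, and none of the 6 passed the test (lowest adjusted p = 0.135 by edgeR). Dendritic cell markers summed to 34.4 to 35.5 against 47.6 to 58.5 CPM, with Cd209a past the test (adjusted p = 0.0150). The part of these marker levels in the integrin values was not tested.

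The platelet subunit Itga2b was at 20.4 to 22.3 CPM in females and 19.8 to 26.9 CPM in males (-0.07, adjusted p = 0.853). Its highest value was in male 1, and without that library the sign changed (0.09). The 5 platelet markers, of which Itga2b is 1, had 3 values below 0 and 2 above. Pf4 was at 267 to 291 against 148 to 234 CPM and Ppbp at 102 to 137 against 55.3 to 86.9 CPM, higher in females, while Gp9 was at 0.401 to 1.33 against 1.53 to 1.68 CPM and Gp1bb at 0.125 to 0.434 against 0.317 to 0.444 CPM.

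Genes that work with these chains were described from 4 fixed lists, none of which had a member past the test. Of all genes tested, 46.6% lay below 0 and 11.3% had every male library above every female one. Basement membrane partners, which join or bind the laminin network, had all 8 values below 0, a median of -0.32, and every male library above every female one in all 8. The smallest p-values among them were those of Sparc, a collagen-binding matrix protein (-0.59, adjusted p = 0.135), Col4a1, a collagen IV chain (-0.45, adjusted p = 0.138), and Ntn4, a netrin that binds laminin (-0.50, adjusted p = 0.165). The list of non-integrin laminin receptors and genes that work with them, including Bcam and Cd151, had all 11 values below 0. Its median was -0.33, and 7 genes were without overlap. It was led by Sntb1, a syntrophin (-0.50), Prx, periaxin of the myelin-forming Schwann cell (-0.72), and Sgce, a sarcoglycan (-0.33). Prx was also among the 7 myelin markers, so the counts of these lists are not independent. Without female 2 and male 1, 9 of these 11 were below 0, with a median of -0.23, and all 8 basement membrane partners still were.

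Integrin adaptors and signalling genes were divided, with 12 of 23 tested values below 0 and a median of -0.03, and 16 of 23 below 0 without female 2 and male 1 (median -0.05). The smallest p-values were those of Tns2, a tensin (-0.39, adjusted p = 0.144), Ptk2b, a focal adhesion kinase relative found in leukocytes (0.56, adjusted p = 0.160), and Lims2, which binds integrin-linked kinase (-0.34, adjusted p = 0.241). Integrin ligands other than laminin had 6 of 12 values below 0 and a median of -0.05, against 9 of 12 and -0.13 without both libraries, with Npnt (-0.48), Postn (-0.55) and Tnc (-0.32) having the smallest p-values. Fermt1 and Madcam1 did not pass the filter on low counts.

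Integrin subunits are also set apart by alternative exons, and estimated transcript levels in the deposited files allow their shares to be given. The exons below were read from the GRCm38 genome with the GENCODE M21 annotation, on the plus strand, 5' to 3'. Capitals mark the alternative exon, and 12 bases of the neighbouring exons are in lower case, on both sides for Itga7 and on the 5' side for Itga6 and Itgb1. The Itga6 exon (chr2:71853534-71853663, 130 bases) ends the reading frame and gives the A form of the cytoplasmic tail, and its 108 capitals run through the stop codon, leaving off the rest of the exon. The Itga7 exons (chr10:128941822-128941941 and chr10:128941445-128941576, 120 and 132 bases) are mutually exclusive and lie in the part of the extracellular domain that contacts laminin. The Itgb1 exon (chr8:128726983-128727063, 81 bases) gives the D form of the tail known from striated muscle, and its 75 capitals also run through the stop codon. They are shown because their use can be read in these libraries.
Itga6 130-base exon: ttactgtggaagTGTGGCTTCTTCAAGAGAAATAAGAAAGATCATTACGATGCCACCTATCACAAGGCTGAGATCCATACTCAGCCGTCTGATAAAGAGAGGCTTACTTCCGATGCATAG
Itga7 120-base exon: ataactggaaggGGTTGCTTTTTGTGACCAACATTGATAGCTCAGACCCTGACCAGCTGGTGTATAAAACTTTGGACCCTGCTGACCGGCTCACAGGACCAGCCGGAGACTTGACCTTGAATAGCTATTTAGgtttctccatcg
Itga7 132-base exon: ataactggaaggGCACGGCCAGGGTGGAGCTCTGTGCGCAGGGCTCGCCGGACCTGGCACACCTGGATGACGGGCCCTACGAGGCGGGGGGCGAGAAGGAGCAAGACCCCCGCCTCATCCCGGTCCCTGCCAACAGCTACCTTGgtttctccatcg
Itgb1 81-base exon: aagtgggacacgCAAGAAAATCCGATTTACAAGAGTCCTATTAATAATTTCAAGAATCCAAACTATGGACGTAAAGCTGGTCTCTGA

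Shares of exons and transcripts, here and below, are of the TPM in a gene's protein-coding transcripts. Those holding the Itga6 exon carried 97.8 to 98.6% of that TPM in females and 99.1 to 99.4% in males. Itga6-209, whose exons were not known here, was counted as lacking the exon. Itga6-203, a processed transcript with 35.6% of the Itga6 reads, was outside these shares. The sexes did not overlap (98.3 ± 0.41 and 99.2 ± 0.20%), and the two-sided exact permutation test gave p = 0.1, or 0.3 after adjustment over 6 exons. The 120-base exon of Itga7 was in 88.6 to 90.0% of its TPM and the 132-base exon in 8.20 to 9.78%, in all 6 libraries. In females the 120-base exon was at 89.7 ± 0.307% and in males at 88.9 ± 0.297% (exact permutation p = 0.1, adjusted 0.3). The Itgb1 D-form exon was held by a single protein-coding transcript, Itgb1-204, of 711 bases. Itgb1-204 had 210 reads in female 2, or 3.56% of the Itgb1 TPM, against 0 to 16.8 reads and 0 to 0.271% in the other 5 libraries. That share of TPM rests on the short length, since Itgb1-201, of 3815 bases, had 48895 reads in female 2. Female 2 was also the library with the highest sum of skeletal muscle markers. Male 1, with the next highest muscle sum, had 16.8 reads. The part of muscle in the D form was not tested.

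Itgb4 has 2 alternative exons in its long cytoplasmic tail, of 159 bases (chr11:116005897-116006055) and 195 bases (chr11:116004904-116005098). The first was in 20.02 to 23.26% of the Itgb4 TPM and the second in 7.82 to 11.5%, with overlapping values in both sexes. The main transcript of Itgb4, Itgb4-202, lacked both and held 67.1 to 70.1%.

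**Figure D5:**
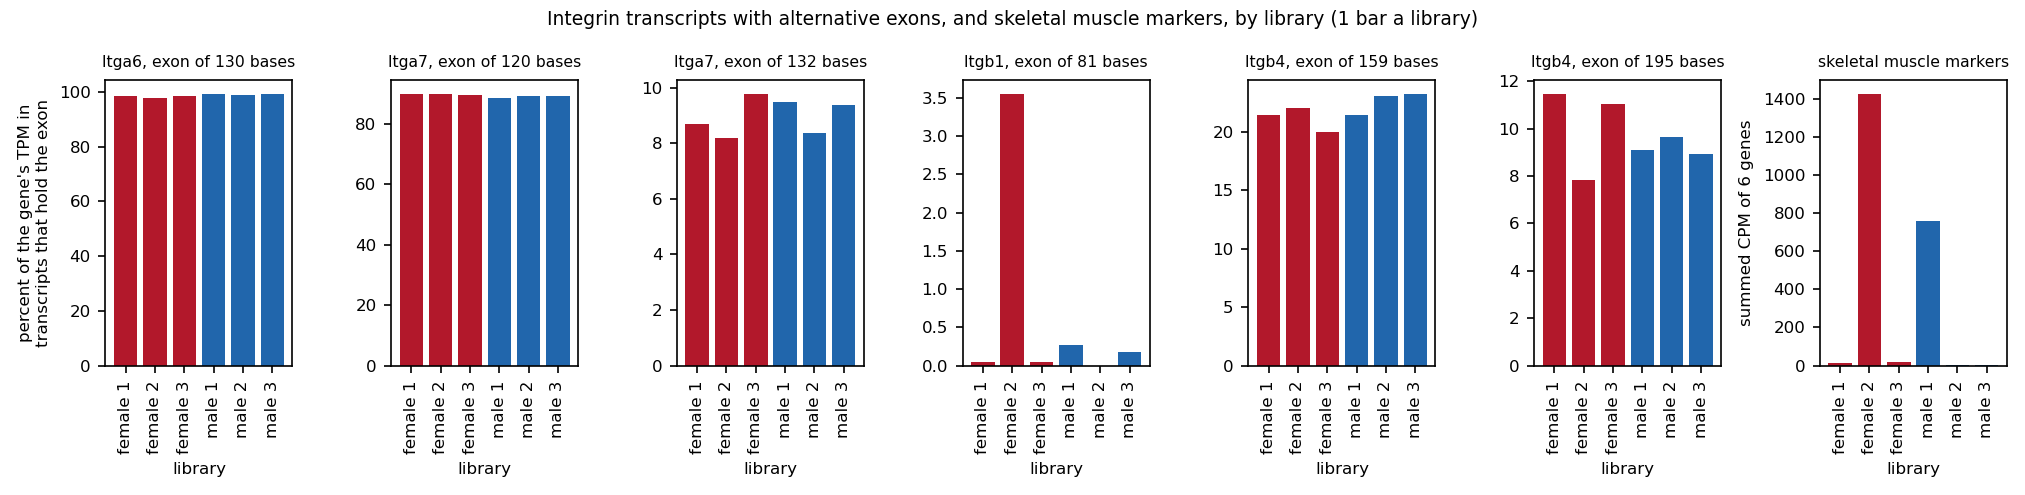
Share (percent of the gene's TPM in protein-coding transcripts) of transcripts that hold each of 6 alternative exons of Itga6, Itga7, Itgb1 and Itgb4, 1 bar per library (female red, male blue), with the summed CPM of 6 skeletal muscle markers at the right. The Itgb1 81-base exon, held by a transcript of 711 bases, stands at 3.56% in female 2 and at 0.271% or less in the other libraries.

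For the 18 members with a mean of at least 5 TPM and more than 1 protein-coding transcript, the share of the major transcript was compared between the sexes. With 3 against 3 libraries no share could pass 0.05 in an exact permutation test, so the shares are described. The sexes did not overlap for the major transcript of 3 genes, Itga6-201 (94.2 to 94.7% in females, 95.4 to 96.1% in males), Itga7-201, described above with its exon, and Itgal-201 (44.9 to 50.9% and 39.5 to 43.6%). Each of the 3 gave p = 0.1 in the exact permutation test, or 0.45 after adjustment over the 18 genes. The share of such transcripts over all genes was not computed. Some shares belonged to single libraries. Itgal-203 held 55.3% of the Itgal TPM in male 1 and 3.88 to 14.9% elsewhere, while Itgal-202 held 4.11% in male 1 and 31.3 to 48.1% elsewhere. Lamc1-204 held 20.3% of the Lamc1 TPM in female 1 and 23.6% in male 1, and had 0 reads in the other 4 libraries. Lama2-208, a transcript of 3383 bases, held 36.6 to 56.0% of the Lama2 TPM. Shares of transcripts that overlap in sequence are estimates of the read assignment, and the part of that estimate in these shares was not tested.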

How the data were processed

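RNA-seq was made from 6 libraries of distal sciatic nerve, 3 of each sex, grouped by the sex in the labels. Trimmomatic 0.39, MultiQC 1.9 and Salmon 1.5.2 are named in the submitters' processing notes. Per the file headers, the deposited files give an estimated count of reads for each transcript, not normalized by the authors, and a deposited TPM value that is scaled for effective length and to a fixed total per library. Genome build, annotation release and strand setting, not given in the sources used here, were not assumed. Salmon assigns reads to overlapping transcripts by estimation, which leaves the values of similar transcripts uncertain.

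Estimated counts and TPM of protein-coding transcripts were summed per gene (all transcripts for genes without one), and the estimated counts were rounded to whole numbers. Female was compared with male over 18916 genes that passed filterByExpr with edgeR 4.0.16 (R 4.3.3) after TMM scaling, by the robust quasi-likelihood test with no covariate and Benjamini-Hochberg adjustment over all genes, at a threshold of 0.05. DESeq2 1.42.0 and limma 3.58.1 were alternatives, with other scalings, filters, a length offset, all transcripts, the replicate number as a block and each library left out. limma was run on voom values and on log2 of TPM plus 1 or 0.1. Over all genes tested the median difference was 0.02. No libraries agreed within sampling noise, with a chi-square of at least 26.6 per degree of freedom within a sex. Replicates were pools of separate animals, and limits from a count of 0 (3 reads) cover counting error only.

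Exon positions and bases came from GRCm38 with GENCODE M21, in which 96 of the 99 member transcripts were found by ID, all 96 with the deposited length. The members, lists and tests were chosen with earlier results of these data known. Members with at least 3 reads in any library were named, except 1 laminin chain that is not reported here but enters the counts and medians, and of each partner list the genes past the threshold and the 3 of smallest p. Genes of marker lists named with values, and libraries or transcripts singled out, were chosen after their values were seen.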

Additional observations from a re-analysis of the deposited data

Results flagged for a closer look

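Reads on transcripts outside the gene sums were a large part for some members. Itga6-203, annotated as a processed transcript of 2721 bases, had a mean of 12043.7 estimated reads over the libraries, from 8619 to 16841, which was 35.6% of the reads of the Itga6 gene. It was looked at again because it lies in data that the comparison of protein-coding transcripts does not use. With all transcripts of each gene summed, the Itga6 log2 fold change was -0.37 (adjusted p = 0.181 by edgeR). Itgae-202, annotated as a retained intron, held 19.5% of the Itgae reads, and the Itgae log2 fold change was -0.17 with all transcripts summed, against -0.33. Itga2b had 9 transcripts outside the sums, the largest being Itga2b-209 with 11.2% and Itga2b-207 with 7.46% of its reads. With all transcripts summed the Itga2b value was -0.13, against -0.07. For all members together, transcripts outside the sums held 3.16 to 4.82% of the reads.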

How the results depend on the processing

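Over 19 alternatives of the fit, 26 of the 35 tested members kept the sign of their log2 fold change (Lama1, with a mean under 1 CPM, had 18). Lamc3 was lower in females in all of them, at -1.99 to -0.62, and past the threshold in 7. Its adjusted p was 0.0481 with RLE scaling, 0.0444 with all transcripts, 0.0426 with a length offset, 0.0430 with voom, 0.0207 without female 3, 0.000806 with no filter and 3.28e-10 with DESeq2. The count of members called lower in females was 0 with upper quartile scaling, a mean CPM of at least 1, no robust estimation, limma on log2 of TPM plus 1 or 0.1, and without female 2 and male 1 together, and 5 with DESeq2, which also called 1 higher. It was 0 to 1 with 1 library left out. The causes were not tested. DESeq2 called 781 of all genes against 22 with edgeR.

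Same-numbered female and male libraries had correlations of -0.22, -0.30 and 0.04 in their deviations, so the numbers were not taken as pairs. With the replicate number as a block, 0 members and 3 of all genes were called, and Lamc3 had an adjusted p of 0.0744.

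With 1 library left out, the class medians ranged from -0.14 to -0.044 for stromal and vascular chains (-0.15 without female 2 and male 1) and from -0.14 to 0.094 for epithelial, embryonic and platelet chains (-0.20 at a mean CPM of at least 1, 0.12 without both libraries). The leukocyte median was 0.22 without both. Signs changed with 1 library left out for Itga11 (-0.47 to 0.25), Itga2 (-0.074 to 0.18), Itga2b (-0.14 to 0.094), Itga3 (-0.19 to 0.0014), Itga4 (-0.0054 to 0.31), Itga8 (-0.17 to 0.14), Itgb3 (-0.12 to 0.096), Itgb7 (-0.12 to 0.19) and Lama1 (-0.082 to 0.91). Without female 2 and male 1 together, signs changed for Itga2 (-0.079), Itga2b (0.12), Itga4 (-0.088), Itga8 (0.12), Itgb3 (-0.21) and Itgb7 (-0.23). With log2 of TPM plus 0.1, Itga8 was at 0.0034 and Itgb3 at -0.0048, and Itgb3 was at -0.0046 with TPM plus 1 and at -0.0055 with a length offset. None of these genes was past the threshold in any alternative. With all transcripts summed, Itgae was at -0.17 and Itga2b at -0.13. The female minus male share of Lama5 was then 2.57 points, against 1.32 with protein-coding transcripts. The sign of that difference changed for Lamb3, at 0.083 against -0.16 points, and for Lamc1, at -0.65 against 0.75 points. Members with few reads (Lama1, Itgad, Itgb6) are limited by depth.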
